A study of Mus musculus with 16 samples.

Results

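Levels of 9 genes encoding transcription factors of the limb field and the T-box family were followed across immortalised mouse embryonic fibroblast (MEF) lines. These 9 members, out of 54453 genes in the expression table, were taken by name: the T-box genes Tbx1, Tbx2, Tbx3, Tbx4, Tbx5, Tbx15, Tbx18 and Tbx20, and the paired-like homeobox gene Pitx1. The rule itself uses no measured value, although the members were chosen with earlier results of these data known. The study asked how faithfully DNA methylation is passed on when a single cell is expanded into a clone, and total RNA of 16 lines was sequenced beside it. MEF-1 and MEF-2 are the parental lines, each grown from 1 of 2 sibling E13.5 C57BL/6J mouse embryos and immortalised by passaging through crisis, without added genes or treatment. From each parental line 7 single cells were sorted and grown into clonal lines, giving 7 MEF-1 clonal lines, 7 MEF-2 clonal lines and 1 library of each parental line. Each set of clones therefore comes from 1 embryo, MEF-1 being male and MEF-2 female by the study's methods, so embryo, sex and line history cannot be told apart, and the tests below measure the spread between clones.

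T-box proteins bind DNA through a shared domain, the T-box, and act as activators or repressors during the patterning of mesoderm. In the vertebrate limb Tbx5 marks the early forelimb, whereas Tbx4 and its upstream regulator Pitx1 mark the hindlimb. Tbx2 and Tbx3 are closely related repressors expressed along the limb margins, and they sit beside Tbx4 and Tbx5 in gene pairs inherited from an ancestral duplication. Tbx15 and Tbx18 are repressors of another branch, with roles in dermis, skeleton and mural cells. Tbx20 is known for the heart and Tbx1 for the pharyngeal arches.

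The members Tbx2, Tbx3, Tbx15 and Tbx18 were expressed in every line, and the remaining 5 were at or close to the level of a line without reads. All values are regularised log2 (rlog) levels made by the authors, so a difference of 1 is a doubling, shrunken towards the gene's mean where reads are few. On this scale a line without reads does not read 0; its value depends on the gene. It was recognised here because 2855 genes of the lowest average share 1 pattern over 15 of the 16 lines, and a line following that pattern within 0.005 was counted as being at the no-read level. Tbx2, Tbx3, Tbx15 and Tbx18 lay above it in all 16 lines, Tbx20 in 9, Tbx4 in 8, Tbx1 in 6, Pitx1 in 4 and Tbx5 in 1. The reads behind each value are not given by the table.

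**Figure D1:**
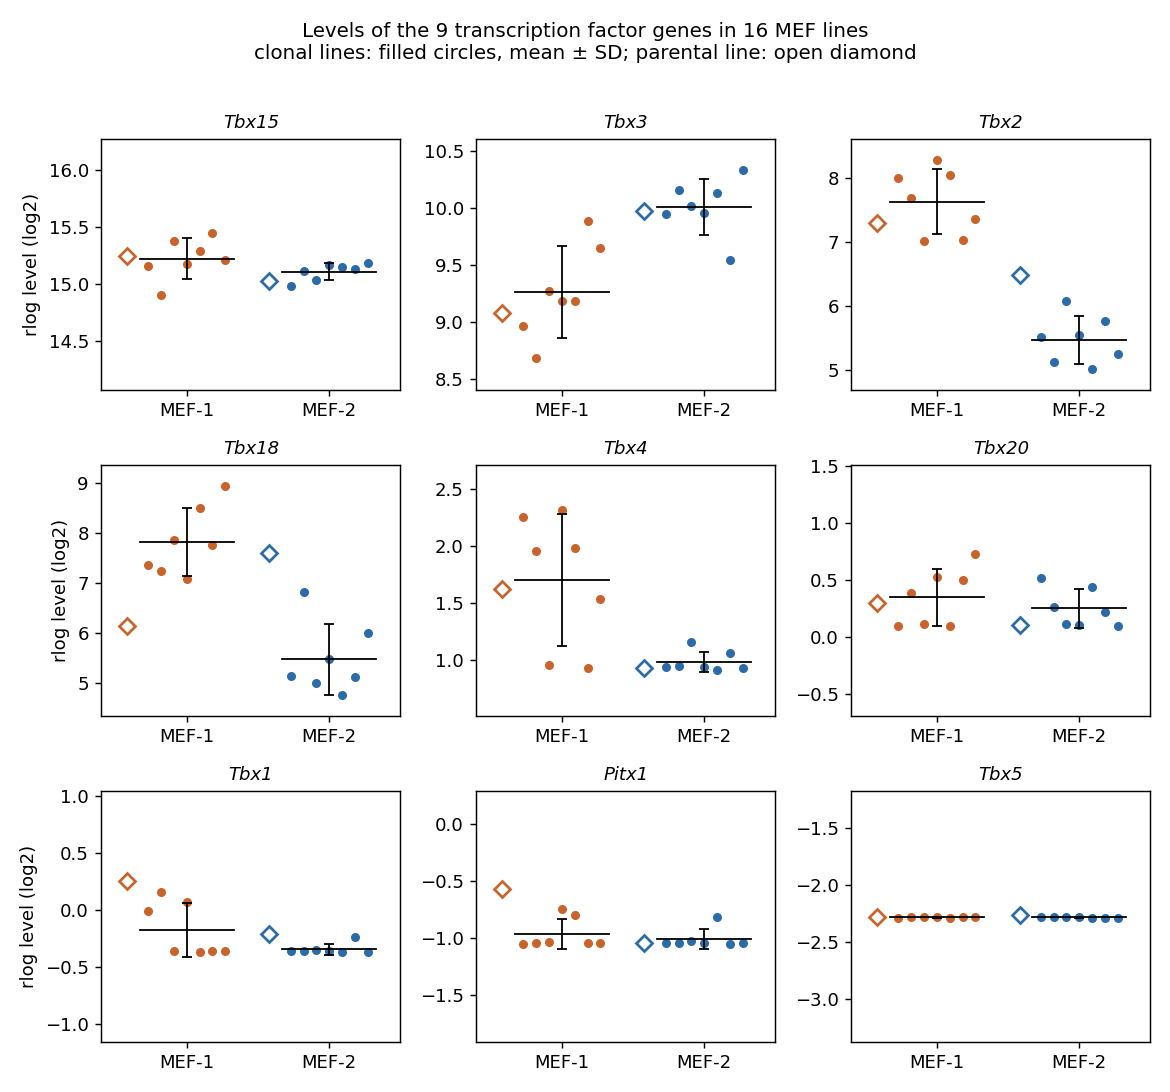
Level of each member in every line, on the rlog (log2) scale; filled circles are clonal lines with their mean ± SD (n = 7), open diamonds the parental line, and each panel has its own range. Tbx2 and Tbx18 show separated clonal sets, Tbx15 overlaps between the sets, and Tbx5 lies at the no-read level in 15 of 16 lines.

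After taking away log2 of transcript length in kilobases, Tbx15 stood highest, at a per-length level of 13.33 over the 16 lines. Tbx3 followed at 7.30, Tbx2 at 4.74 and Tbx18 at 4.45. Tbx2 and Tbx18 did not differ beyond their spread in either clonal set, with per-length levels of 5.78 and 5.59 in MEF-1 and 3.61 and 3.25 in MEF-2, against clonal SDs of 0.37 to 0.71. The remaining 5 had negative per-length levels, set largely by lines without reads, and are not ordered here.

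The lines were checked against fibroblast genes, as their label calls for. All 11 fibroblast markers passed the filter on low averages. By limma 4 were higher in MEF-1 clones and 1 in MEF-2 clones, beside 28.6% and 27.5% of all genes tested. The collagen gene Col1a1 stood at an average of 20.88, Fn1 at 20.82 and Vim at 18.20 on the rlog scale. The called members were not alike: Dcn (11.02 ± 0.92 in MEF-1 and 6.29 ± 0.47 in MEF-2 clones; SD, n = 7 each), Lum (-3.68), Pdgfra (-1.85) and Col3a1 (-0.60) were higher in MEF-1 clones, and Thy1, low in MEF-1 clones at 2.95 ± 0.23, was higher in MEF-2 clones by 2.59. None of 6 skeletal muscle markers passed (Myf5 was listed at 0 in all lines), and the cardiac Myh6, the epicardial Wt1, the endothelial Tie1, the neural crest factor Sox10, the macrophage gene Adgre1 and the basal keratinocyte gene Krt5 were below an average of 0. Chondrocyte markers were the exception among the other cell types: all 5 passed (Snorc through MEF-1 clones alone, being without reads in any MEF-2 clone). The log2 of their summed linear levels was 17.67 to 19.43 in MEF-1 clones and 17.76 to 18.98 in MEF-2 clones. In such a sum the highest gene weighs most. Col9a1 (-3.16) was higher in MEF-1 clones and Matn3 (0.84) in MEF-2 clones, Snorc was called towards MEF-1 clones with no fold to be read, and the part of these marker genes in the differences below was not tested. Of the remaining lists, none of the 4 epithelial genes tested of 7 was called (log2 of summed levels 6.96 to 8.51 in MEF-1 clones and 6.71 to 8.42 in MEF-2 clones). Of 5 endothelial genes tested of 6, 1 was called in each direction (5.07 to 6.39 and 5.10 to 6.85). Of 4 haematopoietic genes tested of 6, 1 was higher in MEF-2 clones (6.01 to 6.79 and 6.60 to 8.50), and of 3 neural crest and glial genes tested of 5, 1 was higher in MEF-1 clones (6.95 to 7.76 and 6.68 to 7.22). The counts of all these marker lists are to be read beside the 56.1% called among all genes tested. In these bulk libraries fewer cells of a type and less RNA per cell cannot be told apart. None of the members lies on a chromosome that the study's methods list as aneuploid.

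The first comparison asked which members differ between the clones of the 2 embryos. Of the 6 members that entered the test (protein-coding, average above 0), 4 were called, with Tbx2, Tbx18 and Tbx4 higher in MEF-1 clones and Tbx3 higher in MEF-2 clones. Tbx15 and Tbx20 were not called. The test was limma with a trended variance prior over 15285 genes, Benjamini-Hochberg adjusted, with a threshold of 0.05. Calls were common: 56.1% of all genes tested were called, 28.6% as higher in MEF-1 and 27.5% as higher in MEF-2, so a share of 4 of 6 is near the background. The clonal ranges of 2 of the 6 members did not overlap, beside 25.9% of all genes.

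**Figure D2:**
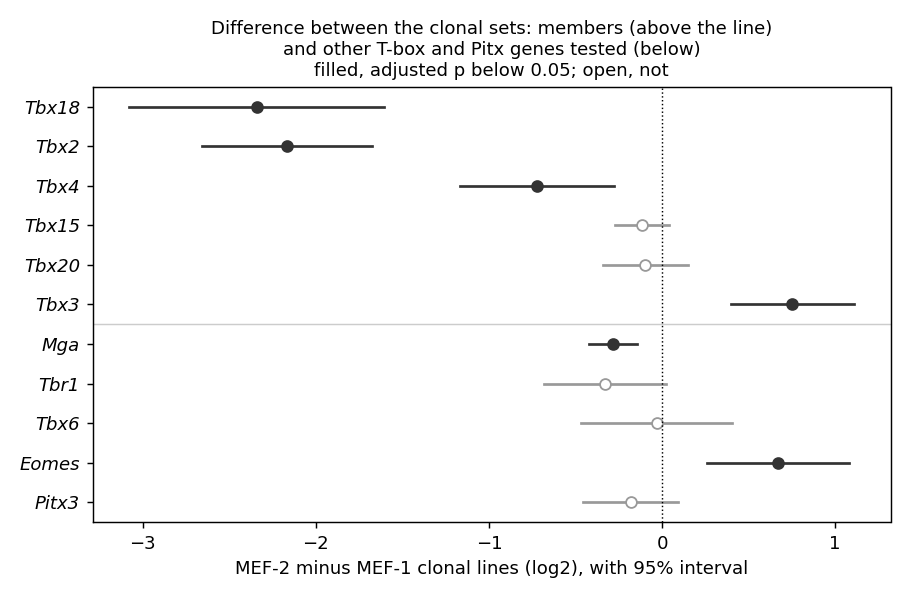
Difference between the mean levels of the clonal sets (MEF-2 minus MEF-1, log2) with its 95% interval, for the 6 members tested and, below the line, 5 other T-box and Pitx genes tested; filled points passed the adjusted threshold. Tbx18 and Tbx2 lie below -2, and Tbx3 and Eomes are the called genes on the MEF-2 side.

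Tbx2 (ENSMUSG00000000093; chromosome 11, 85832551 to 85841948, plus strand, mm10), a repressor of differentiation and cell-cycle inhibitor genes, was higher in every MEF-1 clone than in any MEF-2 clone. Its rlog level in MEF-1 clones was 7.02 at the lowest, 7.69 at the median and 8.29 at the highest. In MEF-2 clones the lowest was 5.02, the median 5.51 and the highest 6.08. The lowest MEF-1 clone was thus clear of the highest MEF-2 clone. The means were 7.64 ± 0.51 and 5.47 ± 0.37 (SD, n = 7 each), a difference of -2.17 ± 0.23 (SE), or 4.49-fold, by limma with adjusted p = 1.9e-06. The parental lines, at 7.30 and 6.49, had the same order, 0.81 apart.

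Tbx18 (ENSMUSG00000032419; chromosome 9, 87702800 to 87731260, minus strand), a repressor needed in somites, epicardium and smooth muscle, showed a difference of similar size with a wider spread. The MEF-1 clones ran from 7.07 through a median of 7.75 to 8.94. The MEF-2 clones ran from 4.77 through a median of 5.13 to 6.82, with clonal line 2 the highest. The sets did not overlap, although the gap between them was only that from 6.82 to 7.07. Their means, 7.82 ± 0.68 and 5.47 ± 0.71 (SD, n = 7 each), differed by -2.34 ± 0.35 (SE), or 5.07-fold, with limma adjusted p = 4.7e-05. The range among the MEF-2 clones, 2.05 or 4.15-fold from lowest to highest, was matched or exceeded by 4.34% of genes tested. Among MEF-1 clones the range was 1.86, as wide in 7.01% of genes, beside median ranges over all genes of 0.56 and 0.46. Of 6 epicardial markers 3 were tested: Msln (-1.96) and Upk3b (-0.62) were higher in MEF-1 clones and none in MEF-2 clones, the call of Upk3b being lost in an exact permutation test (adjusted p = 0.061). Among all genes 28.6% were called towards MEF-1. Krt19 was not called (0.28), and Wt1, Upk1b and Lrrn4 did not pass the filter. The log2 of the summed levels of the 3 tested markers ran from 7.69 to 8.67 in MEF-1 and from 6.99 to 9.16 in MEF-2. The part of these markers in the Tbx18 difference was not tested.

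The parental lines did not follow the clones for Tbx18. The MEF-1 parental line, at 6.14, lay below all 7 of its clones, and the MEF-2 parental line, at 7.59, lay above all 7 of its own. The mean difference of clones from their parent was 1.68 in MEF-1 and -2.12 in MEF-2, and the parental lines themselves differed by 1.46, in the opposite direction to the clones. With 1 library for each parental line this has no replicate check. A parental value outside the range of its clones is common, found for 40.9% of all genes in MEF-1 and 34.2% in MEF-2. Clones all on one side of their parent in MEF-1 and all on the other side in MEF-2 were found for 499 genes, or 3.26%, and Tbx18 was the only tested member among them. Tbx2 lay outside in MEF-2 only, where the parental line was above all 7 clones, with a mean clonal difference of -1.02, while in MEF-1 the parental 7.30 fell among the clones. The parental values of Tbx3, Tbx4, Tbx15 and Tbx20 lay within the range of their clones in both sets.

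**Figure D3:**
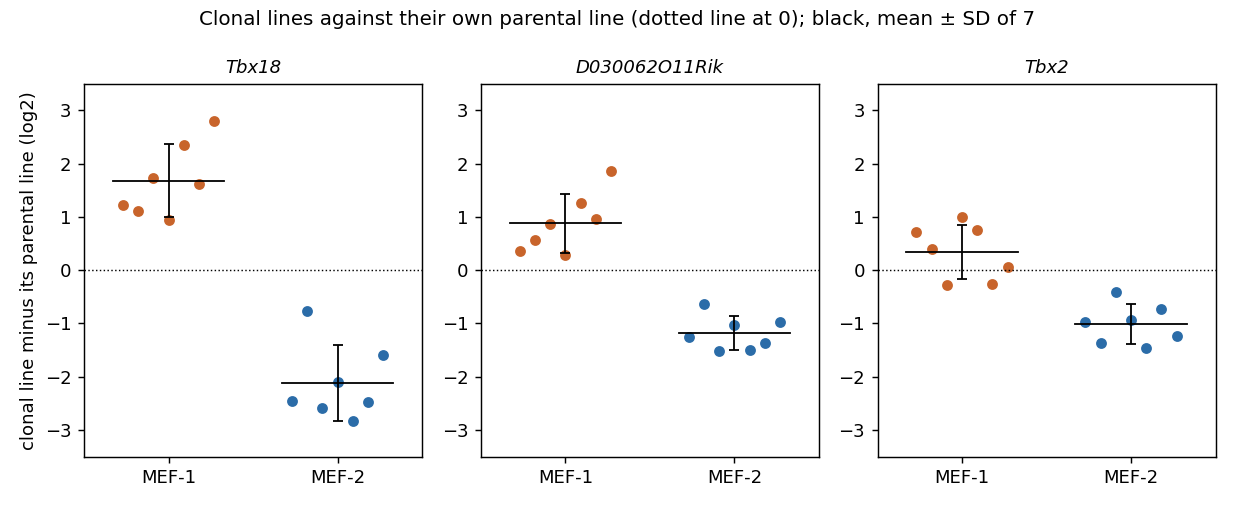
Clonal line minus its own parental line (log2) for Tbx18, the overlapping transcript D030062O11Rik and Tbx2; circles are clonal lines, black bars their mean ± SD (n = 7), and 0 is the single parental library. All 7 MEF-1 clones lie above 0 and all 7 MEF-2 clones below 0 for the Tbx18 pair, whereas the MEF-1 clones of Tbx2 lie on both sides.

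Several genes annotated over or beside the members carried signal, and those at Tbx18 and Tbx2 were called between the sets. D030062O11Rik (chromosome 9, 87729285 to 87732090, plus strand), a transcript whose annotation class is still provisional, overlaps the start of Tbx18 on the opposite strand. It stood at 4.26 ± 0.55 in MEF-1 clones and 2.78 ± 0.32 in MEF-2 clones (SD, n = 7 each). The difference was -1.48 ± 0.23 (SE), with limma adjusted p = 8.5e-05 over genes of every biotype. Its level followed that of Tbx18 line by line, with Pearson r of 0.97 over the 7 MEF-1 clones and 0.96 over the 7 MEF-2 clones, given as a description. Its parental values were 3.38 and 3.97, again below all MEF-1 clones and above all MEF-2 clones. The libraries were directional, but whether strand was used in the quantification is not stated, so reads of the 2 genes may not be fully separated where they overlap.

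At Tbx2 the processed transcript 2610027K06Rik (chromosome 11, 85791661 to 85832223, minus strand) starts 328 bases from the Tbx2 start and runs the other way. Its level was 3.86 ± 0.55 in MEF-1 clones and 2.16 ± 0.16 in MEF-2 clones (SD, n = 7 each), a difference of -1.70 ± 0.20 (SE) with limma adjusted p = 7.2e-06. The 2 genes varied together among MEF-1 clones (r = 0.82, n = 7). Among MEF-2 clones 2610027K06Rik was at the no-read level in 4 of 7, so its relation to Tbx2 cannot be read there, nor its difference as a fold. Both were higher in MEF-1 clones, with no overlap of ranges for either.

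The RefSeq promoter table (GRCm38.p6) held 4 of the 9 members: Tbx1, Tbx4, Tbx18 and Tbx20. The 250 bases before the start are shown for 3 of them, as an expressed gene whose clones varied (Tbx18), a gene of the same chromosome near the no-read level (Tbx20) and a limb gene with reads in some clones only (Tbx4). Capitals mark CpG dinucleotides, the kind of site at which the study followed methylation. Whether the study's methylation data covered these windows was not examined. Each sequence runs 5′ to 3′ on the strand of its gene.
Tbx18, chr9:87731261-87731510, minus strand: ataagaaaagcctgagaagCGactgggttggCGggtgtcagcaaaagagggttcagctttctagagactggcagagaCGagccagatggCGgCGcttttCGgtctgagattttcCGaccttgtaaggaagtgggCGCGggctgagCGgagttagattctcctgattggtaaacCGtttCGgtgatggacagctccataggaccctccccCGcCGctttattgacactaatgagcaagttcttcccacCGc
Tbx20, chr9:24774304-24774553, minus strand: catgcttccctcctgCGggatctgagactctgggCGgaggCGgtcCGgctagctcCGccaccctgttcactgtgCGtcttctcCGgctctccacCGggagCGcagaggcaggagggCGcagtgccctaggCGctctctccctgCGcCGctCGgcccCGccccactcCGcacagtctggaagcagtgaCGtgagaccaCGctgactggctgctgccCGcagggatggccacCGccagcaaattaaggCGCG
Tbx4, chr11:85896515-85896764, plus strand: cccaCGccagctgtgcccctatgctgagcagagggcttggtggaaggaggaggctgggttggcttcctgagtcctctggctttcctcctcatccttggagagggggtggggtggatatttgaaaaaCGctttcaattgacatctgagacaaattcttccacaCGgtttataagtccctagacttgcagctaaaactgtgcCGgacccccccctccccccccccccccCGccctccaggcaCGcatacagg

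The Tbx18 window held 15 CpGs, the Tbx20 window 22 and the Tbx4 window 6. The median over 32851 promoters of this length was 6, and 27.3%, 14.8% and 50.4% of them had as many CpGs as these windows or more. The Tbx18 window lies entirely within the annotated span of D030062O11Rik, and the Tbx4 window lies inside the longer GENCODE span of Tbx4, which starts further upstream. The T-box core GGTGTGA or its reverse complement TCACACC was in none of the 5 promoter windows of the 4 members, beside 3.33% of all promoters; this says only that these letters are not in these windows.

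Tbx3 (ENSMUSG00000018604; chromosome 5, 119670669 to 119684724, plus strand), the close relative of Tbx2 and likewise a repressor, differed in the other direction. In MEF-1 clones the lowest level was 8.68, the median 9.18 and the highest 9.88. In MEF-2 clones these were 9.54, 10.02 and 10.33. The sets overlapped, since MEF-1 clonal lines 6 and 7 (9.88 and 9.65) exceeded MEF-2 clonal line 6 (9.54). The means were 9.26 ± 0.40 and 10.01 ± 0.24 (SD, n = 7 each), and the difference of 0.75 ± 0.17 (SE), or 1.68-fold, had a limma adjusted p of 0.0015. The parental lines, at 9.08 and 9.97, were 0.89 apart in the same direction. MEF-1 clonal line 7 also had a raised median over 819 protein-coding genes of chromosome 5 with an average above 3.75. This median was 0.25, each gene being taken against its mean over the 14 clonal lines. With chromosome medians taken away the Tbx3 difference was 0.82 with limma adjusted p = 0.00034.

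The transcript Tbx3os1, which overlaps the Tbx3 start on the opposite strand, was not called: it stood at 1.09 ± 0.24 in MEF-1 clones and 1.16 ± 0.27 in MEF-2 clones (SD, n = 7 each; limma adjusted p = 0.66 over genes of every biotype), and at 0.85 and 1.57 in the parental lines. Its difference was not tested against that of Tbx3. Its level followed Tbx3 among MEF-1 clones (r = 0.95, n = 7) and hardly among MEF-2 clones (r = 0.14, n = 7); it was at the no-read level in 2 MEF-1 clones and 1 MEF-2 clone. Tbx3os2, further downstream, was above the no-read level in 2 lines.

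Tbx15 (ENSMUSG00000027868; chromosome 3, 99240381 to 99354259, plus strand), a factor of dermal and skeletal mesenchyme, was high in every line. The MEF-1 clones had a lowest level of 14.90, a median of 15.21 and a highest of 15.44. The MEF-2 clones lay within this span, at 14.98, 15.13 and 15.18. The difference of -0.12 ± 0.07 (SE; 95% interval -0.27 to 0.04) had a limma adjusted p of 0.19, which does not show that the sets are alike. Without MEF-1 clonal line 2, the lowest of the 14, the difference was -0.17 with adjusted p = 0.023. The range among MEF-1 clones was 0.55, as wide in 51.4% of genes tested, and that among MEF-2 clones 0.21, as wide in 87.0%. The antisense transcript Gm43120, inside Tbx15, stayed below an average of -1 and was above the no-read level in 6 lines.

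The hindlimb factors were at the edge of detection. Tbx4 (ENSMUSG00000000094; chromosome 11, 85886422 to 85916097, plus strand) lay above the no-read level in 5 of 7 MEF-1 clones, at 1.54 to 2.31, and in the MEF-1 parental line at 1.63. MEF-1 clonal lines 3 and 6, at 0.95 and 0.93, were at the no-read level, as were 5 of 7 MEF-2 clones and the MEF-2 parental line. The 2 MEF-2 clones above it, lines 3 and 6, reached 1.15 and 1.06. The set means of 1.70 ± 0.58 and 0.98 ± 0.09 (SD, n = 7 each) differed by -0.72 ± 0.21 (SE), with limma adjusted p = 0.0083; the ranges overlapped. Since most MEF-2 clones were without reads and rlog shrinks low values, this difference is not read as a fold.

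Pitx1 (ENSMUSG00000021506; chromosome 13, 55825051 to 55836192, minus strand), upstream of Tbx4 in the hindlimb, did not enter the test. It was above the no-read level in the MEF-1 parental line (-0.57), in MEF-1 clonal lines 4 (-0.75) and 5 (-0.80) and in MEF-2 clonal line 5 (-0.81), and at about -1.04 elsewhere. With no filter on the average its difference was -0.04 with a limma adjusted p of 0.57. Gm47071, which overlaps it on the opposite strand, was above that level in 4 lines. The forelimb gene Tbx5 (ENSMUSG00000018263; chromosome 5, 119832668 to 119885219, plus strand) was at the no-read level, -2.28, in 15 lines, and the MEF-2 parental line at -2.26 was the exception. Thus neither the forelimb nor the hindlimb gene of the classical pair was clearly expressed in any line, and Tbx4 had the more lines with signal.

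Tbx20 (ENSMUSG00000031965; chromosome 9, 24718138 to 24774303, minus strand), the cardiac factor, had reads in 4 of 7 clones of either set and in the MEF-1 parental line. Its levels ran from 0.09 to 0.73 in MEF-1 clones (median 0.39) and from 0.10 to 0.52 in MEF-2 clones (median 0.22). The difference was -0.10 ± 0.12 (SE; 95% interval -0.34 to 0.15), with limma adjusted p = 0.49. Of 7 cardiac markers 5 were tested. Nkx2-5 was higher in MEF-1 clones (6 of 7 MEF-2 clones being at the no-read level). Ryr2 and Actn2 were higher in MEF-2 clones, Actn2 not by an exact permutation test (adjusted p = 0.065). These calls are to be read beside the 56.1% called among all genes tested. The log2 of the summed levels of the cardiac markers tested was 7.30 to 8.08 in MEF-1 clones and 7.73 to 8.23 in MEF-2 clones.

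Tbx1 (ENSMUSG00000009097; chromosome 16, 18580979 to 18590671, minus strand), the pharyngeal arch gene, was above the no-read level in both parental lines (0.26 and -0.21), in MEF-1 clonal lines 1, 2 and 4 (-0.01, 0.16 and 0.08) and in MEF-2 clonal line 6 (-0.23). The other lines lay near -0.36. With no filter its difference was -0.17 (limma adjusted p = 0.12). The MEF-1 parental line had the highest value of all 16 for Tbx1 and for Pitx1. The lincRNA 4930588K23Rik, starting 1321 bases from Tbx1, was above the no-read level in 1 line, also the MEF-1 parental. The other annotated neighbours of members (Gm11444, Gm43050, Gm37374, Gm29824 and Gm28760) were listed at 0 in all lines.

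Tbx2 and Tbx4, which lie 44473 bases apart on chromosome 11, varied together among MEF-1 clones, with a Pearson r of 0.96 over 7 clones, of which 5 had Tbx4 reads. The r of 0.89 over the MEF-2 clones rests on the 2 clones with Tbx4 reads. The clones without Tbx4 reads in MEF-1, lines 3 and 6, were those with the lowest Tbx2 (7.02 and 7.03), and the clones with Tbx4 reads in MEF-2, also lines 3 and 6, were those with the highest Tbx2 (6.08 and 5.76). The MEF-2 parental line, with Tbx2 at 6.49 and Tbx4 at the no-read level, did not follow this order. Taken against gene means over the 14 clonal lines, the chromosome 11 median deviated most in MEF-1 clonal line 6, at -0.11. Its part in this relation was not tested. Of the 15 pairs of tested members this was the one with the highest r among MEF-1 clones. Tbx2 and Tbx3 had r of -0.58 and -0.57, and Tbx3 and Tbx15 0.79 and 0.23 (n = 7 each). The points share their library and its scaling, and no p is attached.

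**Figure D4:**
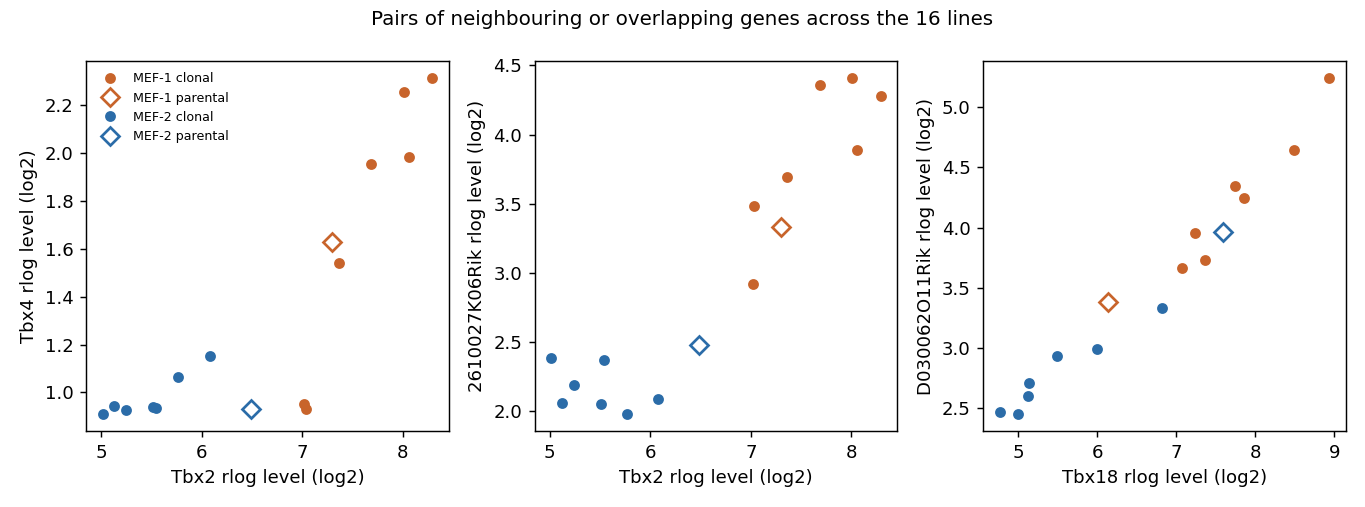
Levels (rlog, log2) of Tbx4 and of 2610027K06Rik against Tbx2, and of D030062O11Rik against Tbx18, in the 16 lines; circles are clonal lines and diamonds parental lines. The Tbx18 pair forms 1 band through both sets, while many MEF-2 values of Tbx4 and 2610027K06Rik are at the no-read level.

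The genes whose levels were most like each member over the 14 clonal lines, after the mean of each set was taken away, were named by up to the 2 highest r among all genes tested. For Tbx2 these were Ace, the angiotensin-converting enzyme gene (r = 0.91), and Wdr92 (0.90), both on chromosome 11 as well. For Tbx3 they were Tead3, a transcription factor of the Hippo pathway (0.89), and Rnf10 (0.88), which is also on chromosome 5. For Tbx18 the proteasome subunit gene Psmd2 is given (0.91). For Tbx15 they were Hnrnpc and the linker histone gene Hist1h1c (0.95 and 0.94), and for Tbx20 the sodium-proton exchanger gene Slc9a5 and the hormone gene Gnrh1 (0.87 and 0.85). For Tbx4 the ephrin receptor gene Ephb1 (0.93) owed its place to the MEF-1 clones, with r of 0.98 there and -0.59 among MEF-2 clones. Each was picked from the highest among all genes tested, over 14 lines, so these values describe the search and carry no test.

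Spread among the clones was compared as well. No member was called (limma on absolute deviations from the set median); only 0.0131% of all genes were called, 2 in number, with 1329 at an unadjusted p under 0.05. Tbx4 came closest, with less spread in MEF-2 (a difference of -0.39, 95% interval -0.64 to -0.14, adjusted p = 0.20), but 5 of its 7 MEF-2 clones were at the no-read level, which holds their spread low. For Tbx18 the difference in spread was -0.03 with an interval of -0.56 to 0.51, which leaves room for a sizeable difference.

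Across the rest of the T-box family, 10 of 17 genes were tested and 6 called, 4 as higher in MEF-1 and 2 as higher in MEF-2 clones, members included. This share is near the 56.1% called among all genes, and the counts of the limb lists that follow are to be read beside the same background. Mga, a large factor with both a T-box and a domain that pairs with MAX, stood at 14.23 ± 0.13 in MEF-1 and 13.95 ± 0.12 in MEF-2 clones (SD, n = 7 each), a difference of -0.28 with limma adjusted p = 0.0020. Eomes, known for early mesoderm and lymphocytes, was low at 2.14 ± 0.21 and 2.81 ± 0.48, a difference of 0.67 with adjusted p = 0.0079. Tbr1 and Tbx6 were not called, with differences of -0.33 and -0.03. Tbx19, Tbx21, Tbx22 and Tbxt lay near the no-read level, with signal in 3, 3, 1 and 3 lines, and Tbx10 was listed at 0. The median difference over the 10 was -0.20, beside -0.0043 over all genes tested. Pitx3, a relative of Pitx1 known for the lens and midbrain neurons, averaged 1.21 and differed by -0.18 (limma adjusted p = 0.24).

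The limb signals gave calls in both directions: of 14 genes, 10 were tested, 2 were higher in MEF-1 and 3 in MEF-2 clones. Wnt5a, which directs outgrowth, was at 15.03 ± 0.28 in MEF-1 and 13.33 ± 0.11 in MEF-2 clones (SD, n = 7 each; a difference of -1.70), and Fgf10, the mesenchymal signal that starts the limb bud, differed by -0.67. Grem1, the BMP antagonist of the limb bud, was higher in MEF-2 clones by 2.61, Wnt2b by 1.54 and Bmp2 by 1.29. Limma adjusted p was 0.012 for Fgf10 and 0.049 for Bmp2, whose call is lost in an exact permutation test (adjusted p = 0.078), and 0.0016 or less for Wnt5a, Grem1 and Wnt2b. Fgf8 and Shh, signals of the apical ridge and of the posterior margin, averaged -0.40 and -2.10 and were not tested, and Fgf4 was listed at 0.

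Of the 10 limb receptors and transducers, all tested, 6 were higher in MEF-1 and 3 in MEF-2 clones. The largest differences towards MEF-1 were those of Smo (-0.67), Fgfr2 (-0.66) and Ptch1 (-0.66), and the largest towards MEF-2 those of Gli1 (1.49), Bmpr1b (1.37) and Smad1 (0.29). The list median was -0.32.

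Among 32 limb mesenchyme factors 22 were tested, of which 6 were higher in MEF-1 and 4 in MEF-2 clones, with a median difference of -0.13. Msx1, a homeobox gene of undifferentiated limb mesenchyme, was at 8.49 ± 0.40 in MEF-1 and 3.92 ± 0.07 in MEF-2 clones (SD, n = 7 each), a difference of -4.57. The MEF-2 clones spanned only 3.81 to 4.02. Whether they were at the no-read level was not examined, so this difference is not read as a fold. For Msx1 the MEF-2 parental line, at 6.63, lay above all MEF-2 clones, as for Tbx2 and Tbx18. Shox2 and Zbtb16, both needed for the proximal skeleton, differed by -2.16 and -2.15. Towards MEF-2 the largest were Lhx9 (1.21) and Irx3 (0.76). No HoxC gene of 9 passed the filter, 3 being listed at 0, and of 9 HoxD genes only Hoxd8 did. Hoxd8 lay at 2.11 to 4.59 in MEF-1 clones and at the no-read level in all 7 MEF-2 clones. For this gene that level was 1.40 to 1.51, itself above the filter. Among clones its reads thus came from MEF-1 alone, and its called difference (-1.67) is not read as a fold. Posterior HoxC genes are, with Pitx1, known marks of hindlimb position.

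**Figure D5:**
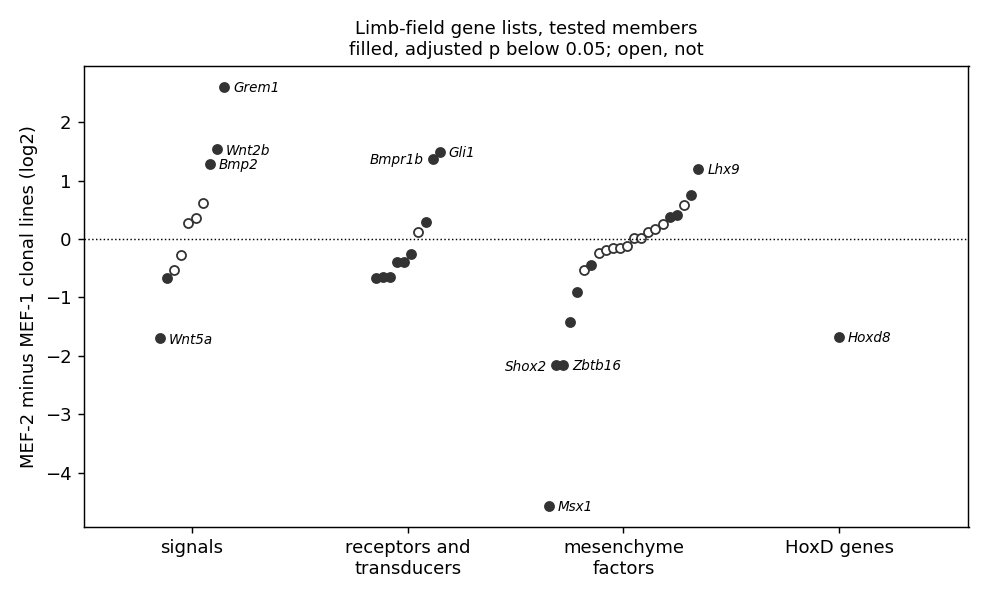
Difference between clonal sets (MEF-2 minus MEF-1, log2) of each tested gene in the limb lists; filled points passed the adjusted threshold, and points are ordered by size within a list. Both directions occur in the signals, receptors and mesenchyme factors, with Msx1 at -4.57 and Grem1 at 2.61 the extremes.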

How the data were processed

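Total RNA of 16 lines (2 parental, 14 clonal) was depleted of rRNA and made into directional libraries. Per the study's methods and processing notes, the authors trimmed reads with Trim Galore 0.6.0, quantified them with Salmon 1.5.2 against mm10 (Ensembl release 102) and deposited log2 values from the rlog transformation of DESeq2 1.24.0, in 1 table for all lines. Rlog shrinks low genes towards their mean; no counts were used here, so depth per line is unknown and no counting intervals are given.

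Gene names, positions and lengths came from GENCODE mouse release 21. Clones of MEF-1 (7) were set against those of MEF-2 (7) by limma 3.58.1 (R 4.3.3) with a trended, moderated variance over 15285 protein-coding genes with an average above 0, Benjamini-Hochberg adjusted (threshold 0.05), and tested on simulated data; parental lines did not enter. Clones of a set share a parental line, and nothing pairs lines across sets. Members, lists and tests were chosen with earlier results of these data known. Named were all members, other T-box and Pitx genes, in each limb list the 3 largest calls per direction, annotated neighbours within 10 kb, the 2 genes most like each member and single lines standing apart. Lists covered fibroblast, cardiomyocyte, epicardial, epithelial, endothelial, haematopoietic, neural crest and glia, skeletal muscle and chondrocyte markers. Alternatives were other filters, biotypes, scalings, priors and tests, a replicate block and each line left out. Some genes that this rule names are not reported here.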

Additional observations from a re-analysis of the deposited data

Results flagged for a closer look

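Tbx18 and the transcript D030062O11Rik moved in opposite directions from their parental lines in the 2 sets: all 7 MEF-1 clones were above their parent, by 1.68 and 0.88 on average, and all 7 MEF-2 clones below theirs, with mean differences of -2.12 and -1.18. The difference between sets was not tested, as each parental line is 1 library, and the overlapping genes are not independent.

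Single clones stood apart from the rest of their set in 8 of 112 sets examined for 56 named genes. For normally distributed values chance gives about 1 in 20, a rate that does not hold where most clones are at the no-read level. Tbx1 was highest in MEF-2 clonal line 6 (-0.23), Pitx1 in MEF-2 clonal line 5 (-0.81), Tbx19 in MEF-1 clonal line 5 (-1.88), Tbx21 in MEF-2 clonal line 7 (-1.61), Tbx22 in MEF-1 clonal line 6 (-2.26) and Gm43120 in MEF-2 clonal line 7 (-1.16), all of them genes above the no-read level in 6 lines or fewer. Mga was highest in MEF-2 clonal line 6 (14.19, the nearest clone at 13.96) and Gnrh1 in MEF-1 clonal line 7 (4.01, the nearest at 3.62).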

How the results depend on the processing

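The calls of Tbx2, Tbx18 and Tbx3 held under all 25 alternatives run and that of Tbx4 under all 24 in which it was tested, the stricter filter leaving it out. Their differences ranged from -2.27 to -1.83, -2.57 to -1.87, 0.66 to 0.86 and -0.85 to -0.54. Tbx15 was called under 2 of 25, quantile normalization (-0.16, limma adjusted p = 0.043) and the fit without MEF-1 clonal line 2 (-0.17, 0.023), and Tbx20 under none. Thus the number of members called was 3 to 5, and 4 to 5 when lines were left out in turn. With deviations taken from the set mean, 1 member (Tbx4, adjusted p = 0.014) and 450 genes were called for spread, against 0 and 2; 5 of 7 MEF-2 clones were at the no-read level of Tbx4, which holds their spread low. The 3 parental values outside their clonal range stayed outside under both scalings. Clone numbers did not pair the lines (r of same-numbered lines -0.13 to 0.20, with 2 of 7 above 0.1); with clone number as a replicate block 4 members, 33 list genes (31 without it) and 8226 genes (8573 without it) were called, and 0 members for spread. Per-length levels from the union of exons moved Tbx3 to 6.89, Tbx1 to -2.04, Tbx20 to -3.30 and Tbx5 to -4.51. The table gives no counts, so what depth limits at Tbx1, Tbx4, Tbx5, Tbx20 and Pitx1 cannot be stated in reads.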
